A study of Mus musculus and Acomys cahirinus with 16 samples.

Results

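A set of 10 genes that mark killer lymphocytes, or the checkpoints that restrain them, was followed in skin from 2 rodents, the house mouse (Mus musculus) and the spiny mouse (Acomys cahirinus). The genes were taken by symbol and are Cd8a, Gzma, Gzmb, Prf1, Nkg7, Klrk1, Ifng, Cd274, Pdcd1 and Ctla4. All 10 were found in the mouse table of 56980 genes and all 10 in the spiny mouse table of 19818 genes. Per the labels there are 4 groups of 4 skin samples, 16 samples in all: untreated mouse, DMBA/TPA-treated mouse, untreated spiny mouse and DMBA/TPA-treated spiny mouse. DMBA is a chemical carcinogen and TPA is a phorbol ester applied as a tumour promoter. The labels used here give no strain, sex, age, dose, number of applications or time of sampling, and do not say whether each sample is a separate animal. P-values therefore measure only the spread between these samples, part of which may be technical.

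Cytotoxic T cells and natural killer (NK) cells kill by releasing granules. Perforin, the product of Prf1, opens pores in the target cell membrane, and granzymes such as those of Gzma and Gzmb enter through them and cleave proteins that trigger cell death. Cd8a encodes the coreceptor chain that defines CD8 T cells, Nkg7 a membrane protein of the granules, and Klrk1 the receptor NKG2D, which recognises stress-induced ligands on damaged or transformed cells. Ifng encodes interferon gamma, the main activating cytokine of these cells. Pdcd1 encodes the inhibitory receptor PD-1, Cd274 its ligand PD-L1, and Ctla4 an inhibitory receptor that competes with CD28 for shared ligands and is abundant on regulatory T cells. Mouse epidermis also houses resident gamma-delta T cells that carry NKG2D.

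Polyadenylated RNA was sequenced, and the values are numbers of fragments per gene. Totals ran from 19608787 to 30198281 counts in mouse libraries and from 21143918 to 30561256 in spiny mouse libraries. At these depths 3 counts correspond to 0.102 to 0.158 CPM (counts relative to the effective library size, with trimmed-mean or TMM factors), a floor that covers counting error only. The libraries are of whole skin, so fewer cells of a type and less RNA per cell cannot be told apart. Skin is the labelled tissue, and 6 epidermal keratinocyte genes summed to between 6408 and 29350 CPM in every sample. Untreated mouse replicate 2 stood apart from its group. Its summed level of 6 hair growth genes was 1617 CPM, against a lowest sum of 3.69 CPM in the group, and its column name alone carries an extra suffix. Values without that library are given beside each mouse call of the 10 genes and wherever leaving it out changed a call or a sign that is reported, or moved a count of calls or a called fold change by more than 1.5 times.

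Most of these genes responded differently to DMBA/TPA in the 2 species. In mouse skin Prf1, Gzma, Nkg7 and Klrk1 fell with DMBA/TPA and Pdcd1 rose. In spiny mouse skin Cd8a, Gzma, Gzmb, Cd274, Pdcd1 and Ctla4 rose and no member passed the test in the downward direction. In each species 9 of the 10 genes passed the filter on low counts, and Ifng did not. In mouse 5 of the 9 were called by edgeR's quasi-likelihood test at an adjusted p under 0.05, against a background of 61.2% of the 19740 genes in the fit (25.9% up and 35.3% down). In spiny mouse 6 of the 9 were called, all higher, against a background of 55.1% of the 14833 genes in the fit (28.2% up and 26.9% down). The share of members called was thus close to the background in both species. The filter asks for 4 samples of a species at or above 0.415 CPM in mouse or 0.380 CPM in spiny mouse. Mouse Pdcd1, mouse Gzmb and spiny mouse Gzmb passed it through their treated samples only. Mouse Prf1 and Gzma passed it through their untreated samples only. A difference in these cases was favoured by the filter. The same limit is marked below for named genes of the other lists, where fewer than 4 samples of the lower group reached that level. It also bears on list counts that include genes not named. The treated range lay wholly outside the untreated range for 5 of the 9 members in mouse and 4 of the 9 in spiny mouse, and this held for 58.6% and 50.9% of all genes tested.

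**Figure D1:**
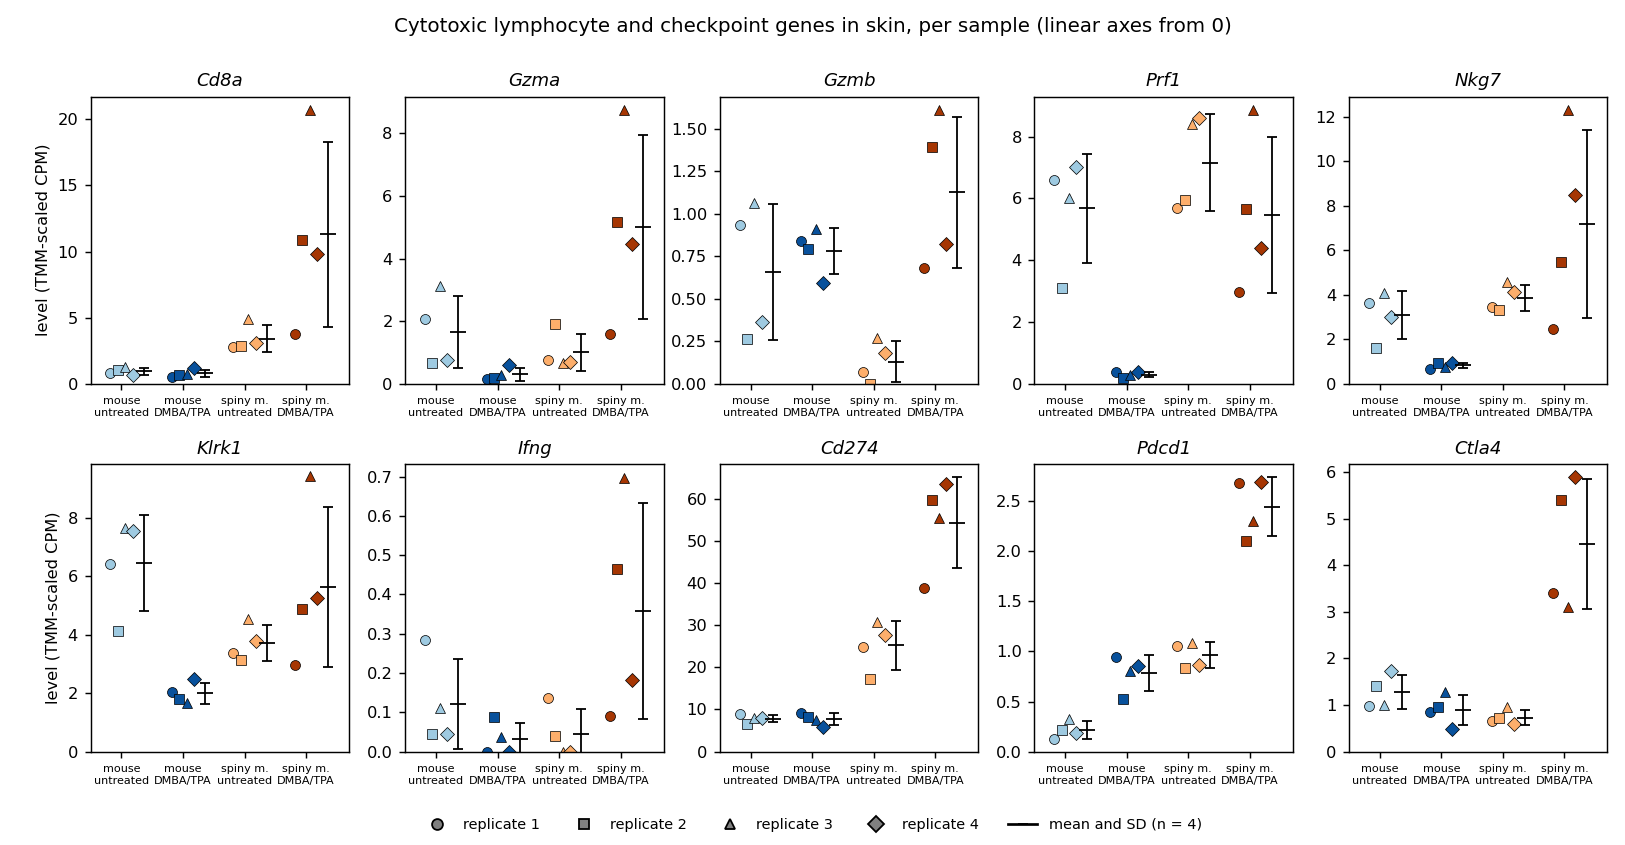
Level of each of the 10 genes in each of the 16 skin samples, as TMM-scaled CPM on linear axes that start at 0, with 4 samples per group; marker shapes give the replicate number and the bars the mean and SD. Scaling was done within each species, so levels should be compared within a species. All 4 treated mouse samples lie below all untreated mouse samples for Prf1, Nkg7, Klrk1 and Gzma, and the treated spiny mouse samples spread widely, with replicate 1 low and replicate 3 high for most effector genes.

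Prf1 showed the largest change of the 10 genes in mouse skin. The gene lies at chr10:61133612-61140459 on the plus strand of GRCm39 (ENSMUSG00000037202). Raw counts were 162, 71, 164 and 154 in untreated replicates 1 to 4 and 7, 4, 8 and 10 in treated replicates. Every treated sample was far below every untreated sample. The mean level went from 5.68 ± 1.76 to 0.301 ± 0.0915 CPM (SD, n = 4 each). On the log2 scale the change was -4.22 ± 0.35 (SE, edgeR, adjusted p = 2.34e-05), and it was -4.33 without untreated replicate 2. In spiny mouse skin Prf1 (scaffold 7:23744916-23751552, minus strand, AcoCah2) had 167, 150, 247 and 188 counts untreated and 65, 158, 242 and 96 treated. On the CPM scale treated replicates 1, 2 and 4 were below every untreated sample and treated replicate 3 was above every one, so the groups overlapped. The log2 fold change was -0.38 ± 0.31 (SE, adjusted p = 0.311). Without treated replicate 3 it was -0.72 and passed the test (edgeR, adjusted p = 0.0402).

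Gzma, the granzyme with trypsin-like activity, moved in opposite directions in the 2 species. In mouse (chr13:113230359-113237515, minus strand, ENSMUSG00000023132) the counts were 51, 15, 85 and 17 untreated and 3, 4, 8 and 16 treated. The raw counts overlap slightly, but after scaling every treated sample was below every untreated one. Gzma fell by 2.39 ± 0.62 on the log2 scale (SE, adjusted p = 0.00835), and by 2.55 without untreated replicate 2. In spiny mouse (scaffold 18:33818754-33826330, minus strand) the counts were 22, 48, 20 and 15 untreated and 35, 145, 239 and 98 treated. Treated replicate 1 lay within the untreated range, which untreated replicate 2 widened, and the other treated samples lay above it. Gzma rose by 2.32 ± 0.53 (log2, SE, adjusted p = 0.00476), from 1.01 ± 0.600 to 5.0 ± 2.94 CPM (SD, n = 4 each).

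Gzmb, the granzyme that activates caspases, was scarce everywhere. Mouse samples (chr14:56496295-56499717, minus strand, ENSMUSG00000015437) held 23, 6, 29 and 8 counts untreated and 16, 18, 25 and 16 treated. The untreated samples bracketed the treated ones, and the log2 fold change was 0.23 ± 0.45 (SE, adjusted p = 0.664), or 0.06 without untreated replicate 2. Spiny mouse samples (scaffold 6:63095434-63098942, plus strand) held 2, 0, 8 and 4 counts untreated and 15, 39, 44 and 18 treated. All 4 treated samples were above all untreated samples. The 0 in untreated replicate 2 allows a level of up to 0.119 CPM. Gzmb rose by 3.07 ± 0.59 (log2, SE, adjusted p = 0.00199), from 0.131 ± 0.121 to 1.13 ± 0.445 CPM (SD, n = 4 each). In the spiny mouse annotation 920 of the 1517 exonic bases of Gzmb (60.6%) are shared with Gzmc, which lies wholly inside it, and fragments assigned to several genes were not counted. The spiny mouse Gzmb values therefore come from the unshared bases, and Gzmc was at 0 in all 8 samples.

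Nkg7 and Klrk1 fell in mouse. Nkg7 (chr7:43086497-43087673, plus strand, ENSMUSG00000004612) had 89, 37, 112 and 66 counts untreated and 13, 21, 21 and 25 treated. Klrk1 (chr6:129587286-129600827, minus strand, ENSMUSG00000030149) had 158, 94, 209 and 166 untreated and 39, 41, 46 and 67 treated. For both genes all treated samples were below all untreated samples. Nkg7 fell by 1.90 ± 0.32 on the log2 scale (SE, adjusted p = 0.000878), and by 2.02 without untreated replicate 2. Klrk1 fell by 1.68 ± 0.24 (log2, SE, adjusted p = 0.000396), and by 1.76 without that library.

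The same pair did not pass the test in spiny mouse skin. Nkg7 (scaffold 12:65229579-65230678, minus strand) had 102, 84, 134 and 90 counts untreated and 54, 153, 337 and 186 treated. Klrk1 (scaffold 4:16805524-16818555, plus strand) had 99, 79, 133 and 83 untreated and 65, 137, 258 and 115 treated. For each gene treated replicate 1 was below the whole untreated group on the CPM scale, and treated replicates 2, 3 and 4 were above it. The log2 fold change was 0.90 ± 0.40 for Nkg7 (SE, adjusted p = 0.0848) and 0.61 ± 0.31 for Klrk1 (SE, adjusted p = 0.124). Without treated replicate 1 both passed (edgeR), at 1.18 for Nkg7 (adjusted p = 0.00645) and 0.82 for Klrk1 (adjusted p = 0.0272).

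Cd8a, the CD8 T cell coreceptor chain, changed in spiny mouse. Mouse samples (chr6:71350411-71356157, plus strand, ENSMUSG00000053977) had 21, 23, 35 and 14 counts untreated and 10, 16, 21 and 32 treated. The mouse groups overlapped and the log2 fold change was -0.24 ± 0.34 (SE, adjusted p = 0.551), or -0.12 without untreated replicate 2. Spiny mouse samples (scaffold 4:71667252-71672421, minus strand) had 82, 72, 144 and 68 counts untreated and 83, 305, 566 and 215 treated. Treated replicate 1 fell inside the untreated range and the other treated samples stood well above it. Cd8a rose by 1.73 ± 0.44 (log2, SE, adjusted p = 0.00886), from 3.41 ± 1.0 to 11.3 ± 7.01 CPM (SD, n = 4 each). Its partner chain Cd8b1 rose as well in spiny mouse, by 1.97 ± 0.56 (log2, SE, adjusted p = 0.0147), with 10 to 24 counts untreated and 14 to 129 treated, and passed the filter through its treated samples only. In mouse Cd8b1 had a log2 fold change of 0.34, which did not pass, and it too met the filter through its treated samples only.

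Ifng was close to the limit of detection. Mouse samples (chr10:118276951-118281797, plus strand, ENSMUSG00000055170) had 7, 1, 3 and 1 counts untreated and 0, 2, 1 and 0 treated. Spiny mouse samples (scaffold 16:16333185-16337966, minus strand) had 4, 1, 0 and 0 untreated and 2, 13, 19 and 4 treated. Treated spiny mouse replicates 2 and 3 carried most of the Ifng counts, and the groups overlapped in both species. An exact two-sided permutation test of the CPM values over the 8 samples of a species gave p = 0.114 in mouse and p = 0.0571 in spiny mouse, where the smallest possible value is 0.0286. A count of 0 allows up to 0.102 CPM in untreated spiny mouse replicate 3 and up to 0.137 CPM in replicate 4. When no filter was applied, edgeR gave Ifng an adjusted p of 0.0233 in spiny mouse and 0.233 in mouse. In mouse 25.9% of the exonic bases of Ifng are shared with the overlapping gene model Gm49751.

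The 250 bases before the mouse RefSeq start are printed for 4 effector genes and for Pdcd1, the gene that rose in mouse. Of the effector genes, Prf1, Klrk1 and Gzma fell in mouse. Gzmb did not pass the test in mouse and rose in spiny mouse. The window of Nkg7, which also fell in mouse, was searched but is not printed. All 10 members had a window in the RefSeq table (GRCm38.p6), and each window matched GRCm39 exactly at 1 place. Each was searched on both strands for the Runx core TGTGGT, the AP-1 site TGANTCA, an interferon regulatory factor motif of 2 GAAA blocks with any 2 bases between them, the STAT site TTCNNNGAA, the T-box half-site AGGTGTGA and the TATA box TATAAA. Matches are in capitals, in the orientation of the gene, so a Runx core on the other strand reads ACCACA. The windows lie, in the order printed, at chr10:61133365-61133614 (plus strand, its last 3 bases inside the first exon of the deposited gene model), chr6:129600828-129601077 (minus), chr13:113237516-113237765 (minus), chr14:56499792-56500041 (minus) and chr1:93980279-93980528 (minus), all GRCm39.
Prf1: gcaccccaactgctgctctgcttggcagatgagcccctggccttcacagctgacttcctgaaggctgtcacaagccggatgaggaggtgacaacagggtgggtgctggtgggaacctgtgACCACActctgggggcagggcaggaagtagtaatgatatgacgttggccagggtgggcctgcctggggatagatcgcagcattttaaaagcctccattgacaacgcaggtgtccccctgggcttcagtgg
Klrk1: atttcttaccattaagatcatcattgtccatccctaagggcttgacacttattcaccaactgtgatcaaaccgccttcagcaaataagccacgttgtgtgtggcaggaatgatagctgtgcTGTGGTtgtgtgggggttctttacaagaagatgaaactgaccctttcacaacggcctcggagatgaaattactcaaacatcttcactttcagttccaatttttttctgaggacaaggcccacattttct
Gzma: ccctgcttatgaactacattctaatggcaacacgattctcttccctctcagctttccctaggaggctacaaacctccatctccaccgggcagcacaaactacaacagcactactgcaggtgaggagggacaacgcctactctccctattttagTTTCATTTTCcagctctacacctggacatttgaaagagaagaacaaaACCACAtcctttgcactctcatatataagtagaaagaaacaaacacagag
Gzmb: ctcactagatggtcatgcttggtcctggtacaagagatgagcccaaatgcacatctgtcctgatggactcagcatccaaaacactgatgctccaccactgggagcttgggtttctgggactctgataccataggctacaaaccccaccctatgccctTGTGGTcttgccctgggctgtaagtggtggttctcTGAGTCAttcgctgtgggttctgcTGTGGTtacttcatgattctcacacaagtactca
Pdcd1: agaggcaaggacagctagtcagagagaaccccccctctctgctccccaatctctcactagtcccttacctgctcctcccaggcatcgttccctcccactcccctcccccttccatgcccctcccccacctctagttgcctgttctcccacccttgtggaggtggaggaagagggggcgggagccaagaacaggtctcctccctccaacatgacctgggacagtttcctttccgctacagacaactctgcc
A Runx core was present in the windows of Prf1, Klrk1, Gzma, Gzmb and Nkg7, which is 5 of 10 members, against 14% of 32536 mouse promoter windows of this length. Its base nearest the start lies 125 bases before it in Prf1, 124 in Klrk1, 45 in Gzma, 78 in Nkg7, and 88 and 29 in Gzmb, which has 2 cores. The AP-1 site was found in Gzmb alone among the 10 (6.73% of all windows) and the interferon regulatory factor motif in Gzma alone (2.98%). The STAT site was in Nkg7 and Ifng (7.04%), the T-box half-site in Nkg7 (1.12%), whose window reaches 65 bases into the annotated first exon, and the TATA box in Ifng (12.3%). None of the 6 motifs was in the windows of Cd8a, Cd274, Pdcd1 or Ctla4. These matches describe letters in a window of the mouse reference and say nothing of binding.

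Among the checkpoint genes, Pdcd1 was the member that rose in both species. Mouse samples (chr1:93966027-93980278, minus strand, ENSMUSG00000026285) had 3, 5, 9 and 4 counts untreated and 18, 12, 22 and 23 treated. Spiny mouse samples (scaffold 2:16013481-16028814, plus strand) had 31, 21, 32 and 19 untreated and 59, 59, 63 and 59 treated. All treated samples were above all untreated samples in each species, and the treated spiny mouse counts were nearly equal, unlike those of the effector genes. Pdcd1 rose by 1.83 ± 0.37 in mouse (log2, SE, adjusted p = 0.00249), 1.92 without untreated replicate 2, and by 1.34 ± 0.18 in spiny mouse (log2, SE, adjusted p = 0.000275).

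Cd274 was the most abundant of the 10 genes per length in 3 of the 4 groups. Mouse samples (chr19:29344855-29365495, plus strand, ENSMUSG00000016496) had 217, 150, 218 and 174 counts untreated and 175, 189, 208 and 159 treated. The mouse groups covered almost the same range, and the log2 fold change was -0.02 ± 0.17 (SE, adjusted p = 0.927), with a sign that depends on the scaling. Spiny mouse samples (scaffold 17:30477397-30502715, minus strand) had 730, 436, 906 and 606 untreated and 854, 1671, 1515 and 1387 treated. On the CPM scale every treated spiny mouse sample was above every untreated one. Cd274 rose by 1.11 ± 0.20 (log2, SE, adjusted p = 0.00133), from 25.2 ± 5.79 to 54.3 ± 10.8 CPM (SD, n = 4 each). PD-L1 is carried by many cell types besides lymphocytes. In mouse 14.1% of the exonic bases of Cd274 are shared with the gene model Gm36043.

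Ctla4 had the smallest adjusted p of the 9 members tested in spiny mouse. Mouse samples (chr1:60926159-60954991, plus strand, ENSMUSG00000026011) had 24, 32, 27 and 38 counts untreated and 16, 22, 35 and 13 treated, and the groups overlapped. The log2 fold change in mouse was -0.51 ± 0.35 (SE, adjusted p = 0.229), or -0.37 without untreated replicate 2. Spiny mouse samples (scaffold 2:45785006-45791622, minus strand) had 19, 18, 28 and 13 untreated and 75, 151, 85 and 129 treated. All treated samples were above all untreated samples. Ctla4 rose by 2.60 ± 0.27 (log2, SE, adjusted p = 8.7e-05), from 0.727 ± 0.159 to 4.45 ± 1.40 CPM (SD, n = 4 each).

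Whether the response itself differed was asked with the interaction of species and treatment over 13656 shared genes. Of these 46.1% were called, 21.4% in favour of spiny mouse and 24.7% in favour of mouse. Of the 9 members tested 8 were called, all with the larger value in spiny mouse. The median difference was 2.79 for the members and -0.03 for all genes tested. The members were chosen with earlier results of these data known, so this comparison is a description and not a test of the set. Gzma had the largest difference, 4.71 ± 0.87 (log2, spiny mouse minus mouse, SE, adjusted p = 0.000438), and was the gene called in opposite directions. Prf1 followed with 3.83 ± 0.51 (adjusted p = 2.87e-05), where mouse fell and spiny mouse did not pass. Ctla4 differed by 3.10 ± 0.44 (adjusted p = 5e-05), Gzmb by 2.84 ± 0.77 (adjusted p = 0.00687) and Nkg7 by 2.79 ± 0.55 (adjusted p = 0.00078). Klrk1 differed by 2.29 ± 0.41 (adjusted p = 0.000377), Cd8a by 1.96 ± 0.61 (adjusted p = 0.0159) and Cd274 by 1.13 ± 0.26 (adjusted p = 0.00268). Pdcd1 was the exception, at -0.49 ± 0.36 (adjusted p = 0.277), with the larger rise in mouse. For Cd8a the call was lost with limma-voom (adjusted p = 0.107). Filter limits given above for mouse Prf1, Gzma, Gzmb and Pdcd1 and for spiny mouse Gzmb apply to these differences too.

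**Figure D2:**
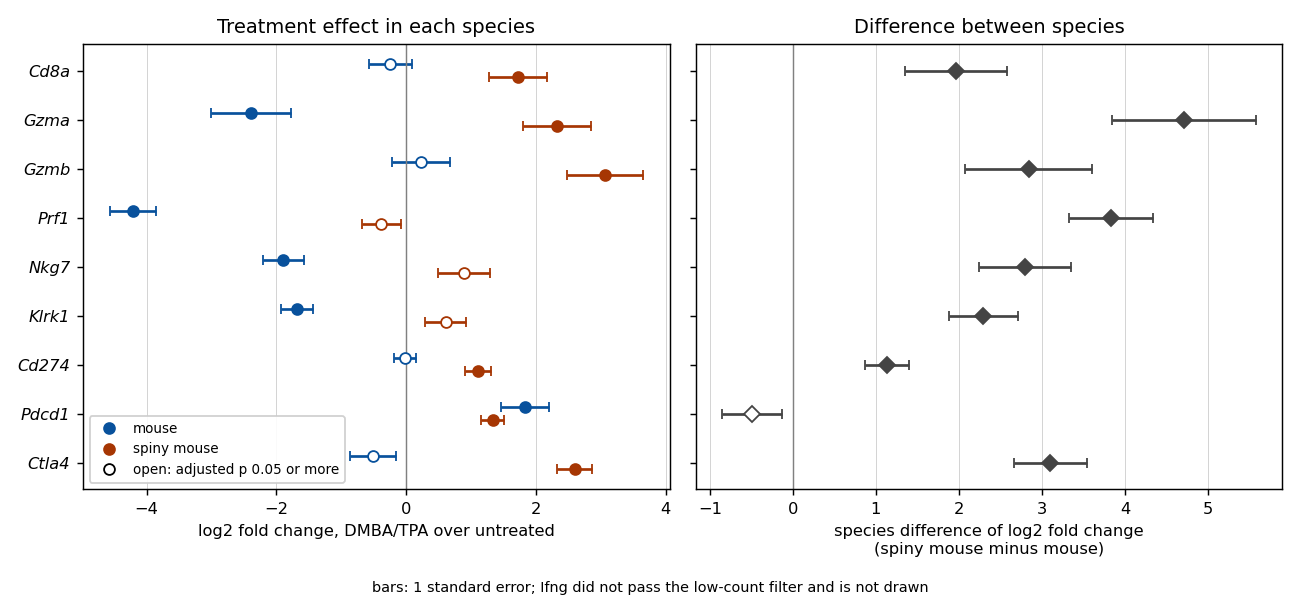
Log2 fold change of DMBA/TPA-treated over untreated skin for the 9 members that passed the filter (left, mouse in blue and spiny mouse in red-brown) and the difference of these values between the species (right), with bars of 1 standard error; open symbols have an adjusted p of 0.05 or more. Prf1 in mouse lies at -4.22, Pdcd1 is to the right of 0 in both species, and 8 of the 9 differences are to the right of 0 with Pdcd1 to the left.

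The order of the genes by level was compared per length, as CPM per kilobase of the deposited gene length. In untreated mouse skin Nkg7 (3.38 ± 1.18), Prf1 (2.20 ± 0.682) and Cd274 (2.16 ± 0.258) led, with overlapping ranges. Gzma followed at 1.65 ± 1.16 and Klrk1 at 0.897 ± 0.229. Ctla4 at 0.547 and Gzmb at 0.457 overlapped, then came Cd8a at 0.260, Pdcd1 at 0.110 and Ifng at 0.0935 (means of n = 4). In treated mouse skin Cd274 (2.14 ± 0.385) was above every other member in all 4 samples, and Prf1 had moved from rank 2 to rank 9, at 0.117 ± 0.0354. Gzmb, Pdcd1, Ctla4, Gzma and Klrk1, at ranks 3 to 7 between 0.546 and 0.279 CPM per kilobase, each overlapped the next in the order.

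In untreated spiny mouse skin the order per length began with Cd274 (6.17 ± 1.42) and Nkg7 (4.67 ± 0.692), which overlapped, followed by Prf1 (2.62 ± 0.569) and Cd8a (2.44 ± 0.714). Klrk1 at 1.15 and Gzma at 1.12 overlapped, and Pdcd1 at 0.489, Ctla4 at 0.342, Gzmb at 0.0862 and Ifng at 0.0369 came last. After treatment Cd274 (13.3 ± 2.65), Nkg7 (8.68 ± 5.10), Cd8a (8.06 ± 5.0) and Gzma (5.55 ± 3.27) led, each overlapping the next. Prf1 moved from rank 3 to rank 6, at 2.0 ± 0.919, and Ctla4 from rank 8 to rank 5, at 2.09 ± 0.657. Ifng was last in all 4 groups by these values. Lengths were not corrected for bases shared with other genes, whose fragments were not counted. For spiny mouse Gzmb 920 of 1517 bases are shared with Gzmc, so its level is understated and its rank may be higher. In mouse 25.9% of the exonic bases of Ifng and 14.1% of those of Cd274 are shared, so their levels may be understated too.

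Because general T cell genes moved too, each member was also set against the summed CPM of 14 of them, among them Cd3d, Cd3e, Cd3g, Cd2, Cd5, Cd28, Lck, Zap70 and Trat1. That sum ran from 41.2 to 59.9 CPM in untreated and from 23.0 to 26.7 CPM in treated mouse skin. In spiny mouse it ran from 62.5 to 102.1 CPM untreated and from 118.8 to 193.8 CPM treated. Prf1 was lower relative to this sum in treated skin of both species without overlap. Its ratio was 7.56% to 11.8% in untreated and 0.763% to 1.60% in treated mouse samples, and 8.23% to 9.70% in untreated and 2.49% to 4.57% in treated spiny mouse samples. Gzmb was higher without overlap in both species, at 0.614% to 1.77% against 2.37% to 3.65% in mouse and 0% to 0.267% against 0.504% to 0.879% in spiny mouse. These ratios are descriptions and carry no test.

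For the checkpoint genes the ratio to this sum separated the groups in 1 species each. In mouse Pdcd1 went from 0.214% to 0.551% of the T cell sum in untreated samples to 2.29% to 4.11% in treated samples. Cd274 went from 13.3% to 16% up to 23.6% to 40% in mouse, although its own level hardly differed. In spiny mouse Ctla4 went from 0.671% to 1.05% up to 1.60% to 3.61%, while Cd274 and Pdcd1 overlapped. Klrk1 was lower in treated mouse samples, at 6.27% to 9.93% against 10.0% to 12.8%. That separation was lost with Cd3e alone as the denominator, where the groups overlapped and the mean log2 change turned from -0.52 to 0.07. For Prf1 and Gzmb the groups stayed apart with Cd3e in both species. With Cd3e Ctla4 separated the groups in mouse as well, at 11.4% to 22.7% in untreated and 26.5% to 53.7% in treated samples, so that it separated them in both species.

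**Figure D3:**
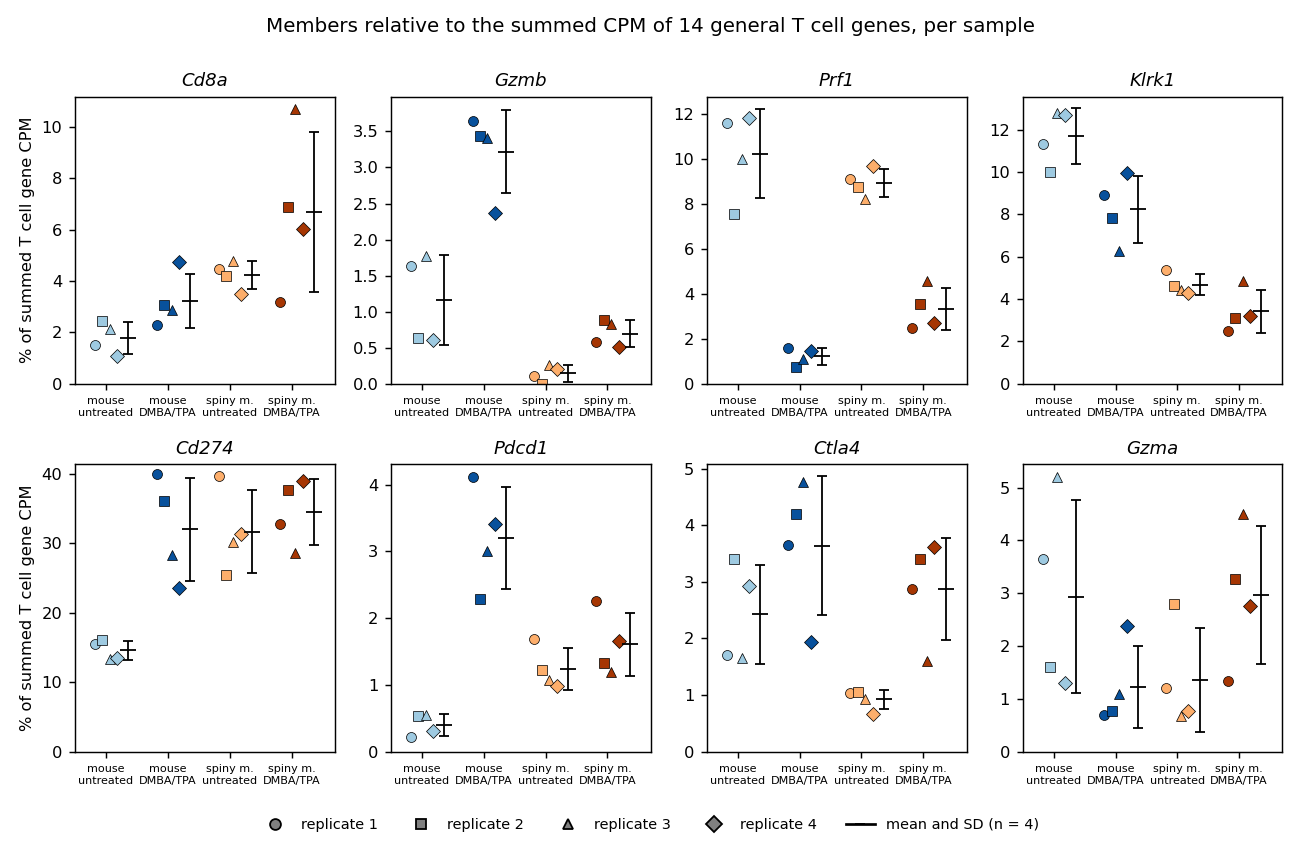
Level of 8 of the genes as a percentage of the summed CPM of 14 general T cell genes in each of the 16 samples, with the mean and SD of 4 samples per group; axes are linear from 0 and marker shapes give the replicate number. Prf1 is lower in all treated samples of both species (0.763% to 1.60% in mouse, 2.49% to 4.57% in spiny mouse), whereas Gzmb is higher in all treated samples of both.

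The treated spiny mouse samples differed among themselves in a shared way. Replicate 1 was the lowest of the 4 for 7 of the 9 members tested (77.8%), where it was lowest for 29.6% of all genes tested. Replicate 3 was the highest for 6 of the 9 (66.7%), where it was highest for 24.7% of all genes. The exceptions were Pdcd1 and Ctla4, whose lowest samples were replicates 2 and 3. General T cell genes had the same order, with replicate 1 lowest for 13 of 14 and replicate 3 highest for 12 of 14, as had NK receptors and factors, at 10 of 12 and 8 of 12. Replicate 1 was also lowest for 5 of 5 skeletal muscle genes and highest for 4 of 6 keratinocyte genes, and the part of tissue make-up in the spread was not tested. Among untreated mouse samples replicate 2 was lowest for 6 of the 9 members (66.7%), against 41.3% of all genes.

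Klrk1, the member with the highest smallest count apart from Cd274 (39), was used to look for genes with a similar spread. Deviations of log2 CPM from the group mean over the 16 samples were compared for 13655 genes. The 5 genes most like Klrk1 were Rab37 (Pearson r 0.911, Spearman rho 0.897), Acod1 (0.903 and 0.868), Nkg7 (0.902 and 0.721), Sema3e (0.901 and 0.894) and Trafd1 (0.901 and 0.785). Without treated spiny mouse replicates 1 and 3, the 2 samples farthest from the median, r was between 0.762 and 0.910 for these 5. Prf1 ranked 6 with r 0.891 and Cd8a ranked 145 with r 0.740. Pdcd1 had r 0.053 and Ctla4 r -0.225. All genes share the same libraries and scaling factors, so these are descriptions.

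The general T cell genes gave the setting of these changes. Counts for this and the following lists stand against the shares of all genes called, 25.9% up and 35.3% down in mouse and 28.2% up and 26.9% down in spiny mouse. The lists were chosen with earlier results of these data known, so these comparisons are descriptions and not tests of a list. In mouse 9 of the 14 fell, 2 rose and 3 did not pass, with a median log2 fold change of -1.14 against -0.15 for all genes tested. In spiny mouse 10 rose, 1 fell and 3 did not pass, with a median of 1.14 against -0.01. Cd28, the costimulatory receptor opposed by CTLA-4, fell by 1.72 ± 0.30 in mouse (log2, SE) and rose by 2.85 ± 0.20 in spiny mouse, a difference of 4.58 ± 0.36 (edgeR, adjusted p = 2.44e-07). Trat1, a T cell receptor adaptor, was the gene that fell in both, by 4.23 ± 0.40 in mouse and by 2.32 ± 0.26 in spiny mouse. Its counts went from 93 to 252 untreated to 4 to 16 treated in mouse, and from 115 to 207 untreated to 21 to 38 treated in spiny mouse, with no overlap, and in mouse it passed the filter through its untreated samples only. Cd3e, a core chain of the receptor complex, fell by 1.72 in mouse and was 0.55 in spiny mouse, which did not pass. Without untreated mouse replicate 2, 10 of the 14 fell and 2 rose in mouse.

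NK receptors and transcription factors followed the same split. Of 16 listed genes 11 were tested in mouse, 6 fell and none rose, with a median of -1.15. In spiny mouse 12 were tested, 9 rose and 1 fell, with a median of 1.16. Ncr1, which encodes the NK receptor NKp46, fell by 2.17 ± 0.50 in mouse (log2, SE, adjusted p = 0.00489) and rose by 0.95 ± 0.23 in spiny mouse (adjusted p = 0.00638). Eomes, a transcription factor of NK and memory CD8 T cells, rose by 3.41 ± 0.73 in spiny mouse (adjusted p = 0.00359), with 5 to 17 counts untreated and 17 to 237 treated, and was too low to test in mouse. Tbx21, its relative T-bet, fell by 1.15 in mouse and rose by 2.0 in spiny mouse. Xcl1, a chemokine of NK and CD8 T cells, fell in both species, by 3.50 ± 0.61 in mouse and by 1.81 ± 0.33 in spiny mouse. The chemokine gene Ccl5 rose by 2.29 ± 0.48 in spiny mouse and had -0.95 in mouse, which did not pass. Without untreated mouse replicate 2, 8 of 12 fell in mouse. With all libraries, mouse Ncr1, Tbx21, Xcl1, Ccl5, Klrb1c, Klrd1, Klrc1 and Hcst passed the filter through their untreated samples only. The mouse counts and median of this list were thus favoured by the filter. Of the genes that fell in mouse, Il2rb alone passed it in each group. Xcl1 in spiny mouse also passed through its untreated samples only, and Eomes and Tbx21 there through their treated samples only. In spiny mouse Klrc2 and Klrb1c were at 0 in all samples, and 100% and 96.8% of their exonic bases are shared with a neighbouring gene. The summed level of the list was 42.8 to 83.9 CPM untreated and 29.7 to 44.6 treated in mouse, and 58.2 to 76.0 untreated and 105 to 166 treated in spiny mouse.

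Other genes of the granule pathway were mixed. In mouse 10 of 17 were tested, 2 rose and 4 fell, which is close to the 61.2% called over all genes, with a median of -0.29 (-0.16 without untreated replicate 2). In spiny mouse 10 were tested, 5 rose and 1 fell, close to the 55.1% called over all genes in either direction, with a median of 0.66. Ctsc, the protease that activates granzymes, rose in both species, by 1.29 ± 0.25 in mouse and by 1.66 ± 0.08 in spiny mouse (log2, SE). Stx11, a granule fusion protein, also rose in both, by 0.81 ± 0.23 and 0.68 ± 0.10. Ctsw, a cathepsin of cytotoxic cells, fell by 1.58 ± 0.19 in mouse, and had -0.97 in spiny mouse, which did not pass. Srgn, the proteoglycan that packs granules and is also abundant in myeloid and mast cells, rose by 2.61 ± 0.16 in spiny mouse. Fasl, the ligand of the other killing pathway, rose by 2.21 ± 0.38 in spiny mouse (adjusted p = 0.00106), with 4 to 12 counts untreated and 14 to 50 treated. It passed the filter through its treated samples only, so the call was favoured by the filter, and it was too low to test in mouse. Gzmk had at most 2 counts in any sample. None of 3 serpin genes listed as granzyme inhibitors (Serpinb9, Serpinb9b and Serpinb6b) passed in mouse at an adjusted p under 0.05 (edgeR), and 1, Serpinb9, had an unadjusted p under it (0.048). Without untreated replicate 2 Serpinb9 passed, at -0.72 (log2, adjusted p = 0.00428).

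Genes listed for gamma-delta T cells did not move together. In mouse 5 were tested, 2 fell and 1 rose, with a median of -0.77 (-0.47 without untreated replicate 2). Trdc and Trgc1, constant regions of the delta and gamma receptor chains, fell by 2.18 ± 0.28 and by 2.79 ± 0.52 on the log2 scale (SE, adjusted p = 0.000214 and 0.00154, edgeR), and were not analysed here in spiny mouse. Trgc1 passed the filter through its untreated samples only. Sox13, a transcription factor of these cells, rose by 1.21 ± 0.30 (adjusted p = 0.00696), and Il23r and Scart1 had -0.77 and -0.47, which did not pass. The summed level of the 5 genes was 28.8 ± 6.67 CPM untreated and 39.8 ± 3.18 CPM treated (SD, n = 4 each). Sox13, the most abundant, carried that higher sum, with means of 15.4 CPM untreated and 35.55 CPM treated. Trdc went from 5.52 to 1.22 CPM and Trgc1 from 4.37 to 0.631 CPM (means of n = 4). Which cells carried Sox13 was not tested. In spiny mouse Sox13, Cd163l1 and Il23r were tested and none passed by edgeR, adjusted or unadjusted, with a median of -0.60.

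Among the NKG2D ligands 4 were tested in mouse, where 1 rose and 1 fell, or 2 and 1 without untreated replicate 2. Their summed level was 36.5 ± 7.89 CPM untreated and 46.85 ± 9.14 CPM treated (SD, n = 4 each), with overlap. H60c, the most abundant, went from 26.8 ± 9.84 to 40.7 ± 8.83 CPM (SD). Its log2 fold change of 0.60 did not pass (edgeR, adjusted p = 0.0936). Without untreated replicate 2 H60c passed, at 0.46 (edgeR, adjusted p = 0.0178). H60b fell by 3.47 ± 0.52 (adjusted p = 0.000502), from 47 to 159 counts untreated to 3 to 10 treated, and by 2.73 without untreated replicate 2. It passed the filter through its untreated samples only. Raet1e rose by 1.55 ± 0.52 (adjusted p = 0.0279), and 1 untreated and 3 treated samples reached the filter's level. H60b and Raet1e overlap each other in the mouse annotation. In spiny mouse Raet1d and Raet1e had 0 counts in all samples, with 100% and 99.0% of their exonic bases shared between them, so this side of the receptor could not be measured.

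T helper and regulatory genes differed as well. In mouse 9 of 12 were tested, 1 rose and 3 fell, fewer than the 61.2% called over all genes. Their mouse median of -0.15 equals that of all genes tested, and it turned to 0.355 without untreated replicate 2, with the same counts of calls. In spiny mouse 10 were tested, 7 rose and 2 fell, with a median of 1.26. Of those that rose, Cd8b1, Cd40lg, Il4 and Il13 passed the filter through their treated samples only. This count and median were thus favoured by the filter. Il4, the type 2 cytokine gene, rose by 5.16 ± 0.43 in spiny mouse (log2, SE, adjusted p = 2.96e-05), from 1 to 4 counts untreated to 59 to 108 treated, and fell by 0.94 ± 0.31 in mouse (adjusted p = 0.0267). Il17f rose by 3.28 ± 0.76 in mouse (adjusted p = 0.00486), from 0 to 5 counts untreated to 13 to 32 treated, and had at most 2 counts in any spiny mouse sample. No untreated sample reached the filter's level for Il4 in spiny mouse or for Il17f in mouse, so both calls were favoured by the filter. Foxp3, the regulatory T cell factor, rose by 0.80 ± 0.21 in spiny mouse (adjusted p = 0.00912) and had -0.33 in mouse, which did not pass and turned to 0.355 without untreated replicate 2.

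Other checkpoint genes were called in both directions in each species. In mouse 15 of 17 were tested, 4 rose, close to the 25.9% of all genes, and 8 fell, against 35.3% of all genes, with a median of -0.55. In spiny mouse 15 were tested, 10 rose, against 28.2% of all genes, and 2 fell, against 26.9%, with a median of 0.97. Lag3, an inhibitory receptor for MHC class II, fell by 0.96 ± 0.26 in mouse (log2, SE, adjusted p = 0.00988) and rose by 2.47 ± 0.30 in spiny mouse (adjusted p = 0.000166), from 23 to 54 counts untreated to 103 to 281 treated. Cd96 and Cd226, receptors that share ligands on target cells, fell by 2.49 ± 0.41 and by 1.93 ± 0.29 in mouse, where Cd96 passed the filter through its untreated samples only. Cd226 rose by 1.54 ± 0.23 in spiny mouse, and Cd96 had 0.65, which did not pass. Icos, a costimulatory receptor of the CD28 family, rose in both, by 1.31 ± 0.23 in mouse and by 1.63 ± 0.16 in spiny mouse, and the difference of 0.32 ± 0.25 did not pass (edgeR, adjusted p = 0.32).

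Genes around interferon gamma moved apart although Ifng itself was barely counted. In mouse 16 of 21 were tested, 2 rose, against 25.9% of all genes, and 7 fell, against 35.3%, with a median of -0.35. Without untreated replicate 2, 4 rose and 7 fell, with a median of -0.26. In spiny mouse 17 were tested, 12 rose and 3 fell, against 28.2% and 26.9% of all genes, with a median of 1.0. Cxcl10, an interferon-induced chemokine gene, rose by 2.07 ± 0.55 in spiny mouse (adjusted p = 0.0106) and had -0.52 in mouse, which did not pass. Cxcl9 rose in both, by 1.21 ± 0.35 and 1.37 ± 0.42. Il12rb2, a receptor chain for the cytokine IL-12, fell in both, by 3.52 ± 0.39 in mouse and by 0.66 ± 0.13 in spiny mouse. Il15, the survival cytokine of NK and CD8 T cells, also fell in both, by 2.23 ± 0.22 and by 0.47 ± 0.13. In spiny mouse Cxcl9 and Cxcl10 were each lowest in treated replicate 1 and highest in treated replicate 3 among treated samples, the order seen for Prf1, Gzma and Cd8a.

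**Figure D4:**
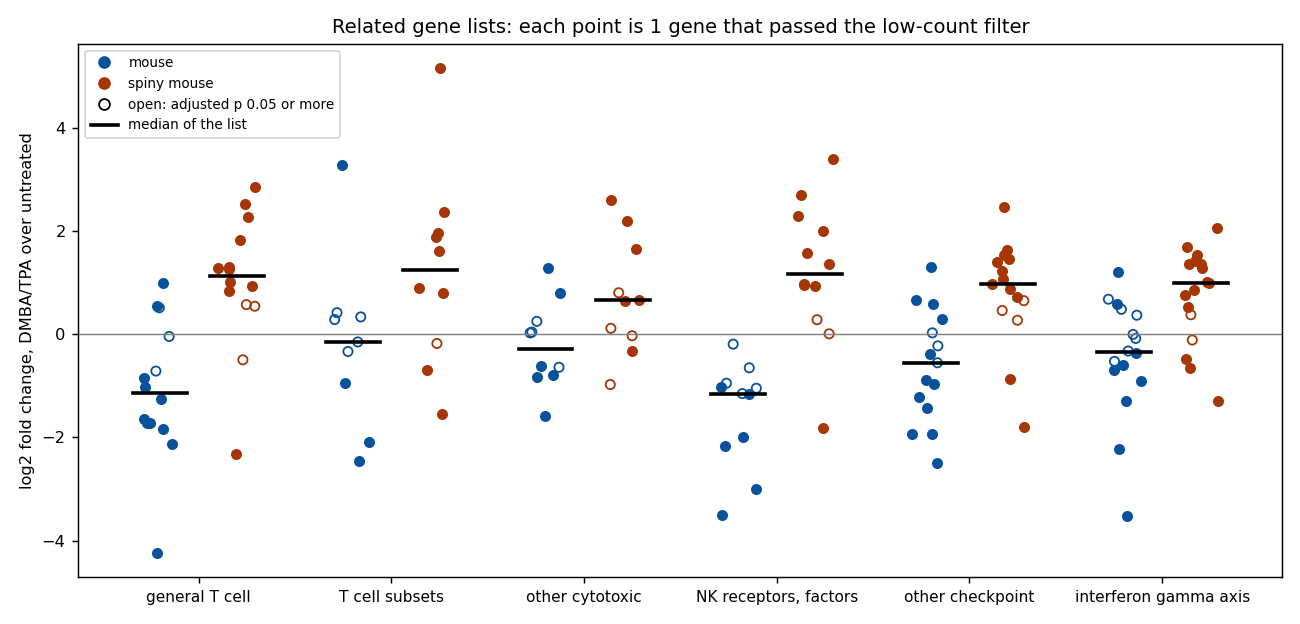
Log2 fold change of DMBA/TPA-treated over untreated skin for each gene of 6 related lists that passed the low-count filter, mouse in blue and spiny mouse in red-brown, with open circles for an adjusted p of 0.05 or more and a black bar at the median of each list. The medians lie at -1.14 in mouse and 1.14 in spiny mouse for general T cell genes and at -0.35 and 1.0 for genes around interferon gamma; that of T helper and regulatory genes in mouse, -0.15, equals the median of all mouse genes and turned to 0.355 without untreated replicate 2.

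Markers of other cells in the skin moved too. Of 8 neutrophil genes listed, 4 were tested in mouse and all 4 rose, S100a8 by 6.27 and S100a9 by 6.34 on the log2 scale. Ly6g, Mpo, Elane and Camp were too low to test in mouse. In spiny mouse 5 of 6 tested rose and 1 fell. The sum of the list went from 9.21 to 37.0 CPM untreated to 843 to 1747 CPM treated in mouse. In spiny mouse it went from 72.5 to 110 CPM to between 2206 and 2570 CPM. Which cells carried these transcripts was not tested. Keratinocyte genes rose for 4 of 6 in each species, and all skeletal muscle genes tested fell, 6 in mouse and 5 in spiny mouse. Macrophage genes fell for 2 of 7 in mouse, or 4 of 7 without untreated replicate 2, and rose for 4 of 6 in spiny mouse. Fibroblast genes fell for 2 of 6 in mouse and for 3 of 6 in spiny mouse, where 1 rose. Of 7 mast cell genes Kit rose in mouse and none fell, with unadjusted p under 0.05 for 2 of the others, and without untreated replicate 2, 1 rose and 4 fell, and in spiny mouse 2 of 5 rose and 1 fell. No B cell gene passed in either species (edgeR, adjusted p under 0.05), of 2 and 3 tested, where 1, Cd79a in spiny mouse, had an unadjusted p under that value (0.0469). Without untreated mouse replicate 2 Cd79b passed in mouse, at -0.80 (log2, adjusted p = 0.0308). With all libraries Cd79b passed the filter in mouse through its untreated samples only.

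Hair growth genes, which mark the growing phase of the follicle, mostly rose in mouse, while most did not pass in spiny mouse. In mouse 5 of 6 rose, with a median of 4.94, and their sum went from between 3.69 and 1617 CPM untreated to between 16810 and 17900 CPM treated. With all libraries, mouse Krt25, Krt35 and Krt85 passed the filter through their treated samples only. Without untreated replicate 2 all 6 rose, with a median of 10.65. In spiny mouse 2 of 5 fell, against 26.9% of all genes, and 3 did not pass, with a median of -2.42. The sum there ran from 775 to 8019 CPM untreated and from 145 to 2258 CPM treated, so the groups overlapped. An exact two-sided permutation test of these sums gave p = 0.0857. The species difference was called for 5 of 5, with a median of -7.72, or -13.24 without untreated mouse replicate 2. The part of all these cell types in the results for the cytotoxic and checkpoint genes was not tested.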

How the data were processed

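The authors deposited 2 tables of raw fragment counts per gene, 1 for each species. Per the file headers, read pairs were counted with featureCounts 2.0.3, on GRCm39 with the Ensembl 108 annotation for mouse and on the AcoCah2 assembly for spiny mouse, with no strand option and without fragments assigned to several genes. Overlapping genes therefore lose their shared fragments. Per the submitters' processing notes, Trim Galore and HISAT2 were also used. The deposited gene lengths, in bases, served only for levels per length. Mouse identifiers were given symbols from the GENCODE annotation of the same build, 56236 of 56980 in all. Columns were assigned by library name for treated samples, and by species letter and number for untreated samples. Labels that describe skin were followed, although the series carries a design text on irradiated fibroblasts.

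Each species was fitted on its whole table with edgeR 4.0.16 in R 4.3.3: filterByExpr (minimum count 10), TMM factors from the genes kept, and the quasi-likelihood test of treated over untreated, with Benjamini-Hochberg adjustment over all genes tested and a threshold of 0.05. The standard error is the log2 fold change divided by the square root of F. The species difference is the interaction over symbols found in both tables (18109) that passed both filters. The scripts were tested on simulated data. Similarity of spread used log2 CPM with a prior count of 2. The members and all gene lists were chosen with earlier results of these data known. From the other lists, the text names called genes with the 4 largest changes in a species, defining markers and genes that did not pass. As alternatives the fits used the DESeq2 1.42.0 test, its size factors, library size alone, other filters, limma-voom 3.58.1, a replicate block, leaving out each library, and, added after seeing the data, TMM factors with total library sizes and the list counts and list genes without untreated mouse replicate 2. Some genes of these lists enter the counts and sums but are not reported here by name.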

Additional observations from a re-analysis of the deposited data

Results flagged for a closer look

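In 2 of 40 groups of 4 samples that were examined (10 genes in 4 groups), a sample lay far from the other 3 by Dixon's criterion, which chance alone meets in about 1 in 20 groups. Cd8a in untreated spiny mouse replicate 3 was at 4.90 CPM, and the next sample was at 3.11 CPM. Gzma in untreated spiny mouse replicate 2 was at 1.90 CPM, and the next was at 0.749 CPM. That Gzma sample sets the top of the untreated range into which treated replicate 1 fell.

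The response to DMBA/TPA differed between the species for 8 of the 9 members tested by the interaction test of edgeR, each with the larger log2 fold change in spiny mouse. Of all 13656 shared genes 46.1% were called, 21.4% with the larger value in spiny mouse. The differences were 4.71 for Gzma, 3.83 for Prf1, 3.10 for Ctla4, 2.84 for Gzmb, 2.79 for Nkg7, 2.29 for Klrk1, 1.96 for Cd8a and 1.13 for Cd274. Gene models, genome assembly and the unstated details of treatment differ or may differ between the species, and their part was not tested. For Gzmb the spiny mouse counts come from the exonic bases that Gzmc does not share. Mouse Prf1 and Gzma passed the low-count filter through their untreated samples only. Gzmb passed it in both species through its treated samples only.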

How the results depend on the processing

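The count of members called was 5 in mouse under all 16 alternatives, 6 to 8 in spiny mouse and 7 to 9 for the species difference. The sign of the mouse Cd274 change turned from -0.02 to 0.082 with DESeq2 size factors, 0.13 without the low-count filter, 0.078 with the DESeq2 Wald test and 0.051 with TMM factors from total library sizes, and ran from -0.085 to 0.115 when each library was left out, never passing the test. Library size alone moved the median of all mouse genes from -0.15 to -0.38, and the 5 mouse calls kept their direction. With Cd3e in place of the 14 T cell genes, the relative change of Klrk1 in mouse turned from -0.521 to 0.066 and that of Nkg7 in spiny mouse from -0.31 to 0.14. The cause was not tested. In spiny mouse Nkg7 passed with the DESeq2 Wald test (0.89, adjusted p = 0.0379). Leaving out a library gave 5 calls in mouse, 6 to 8 in spiny mouse and 8 for the difference.

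Replicate numbers recur in every group. The mean correlation of the deviations of same-numbered samples was 0.009 in mouse and -0.355 in spiny mouse, and 0 of 4 samples correlated best with their own number, so the numbers were not treated as pairs. With the replicate block the counts of members called in mouse, in spiny mouse and for the difference were 5, 6 and 8, as without it. The shares of all genes called with the block were 57%, 50% and 41.9%.

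Depth limits Ifng, with at most 19 counts, and the low group of Gzmb, Pdcd1, Prf1 and Gzma.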
